A study of Homo sapiens with 6 samples.

Results

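Of the 29908 genes with expression values in Hep3B cells, 10 genes of iron and heme handling were examined: HPX, TF, TFRC, TFR2, FTH1, FTL, SLC40A1, CP, HAMP and HMOX1. The genes were chosen by symbol, and all 10 were found by their Ensembl identifiers. Earlier results of these data were known at that choice, so counts and p-values of the members are not from a blind list. HPX was selected on these same libraries, since the study listed it among genes shared by its differentially expressed genes and other gene sets, and it was included here with its rise already known, so its values are given as a description with no test. Transcripts were measured by mRNA sequencing and are given as FPKM, the reads of a gene scaled to its exon length and to the reads of the library.

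Hep3B is a cell line from a human hepatocellular carcinoma (HCC). Hep3B-Con cells carried a control lentivirus (shControl) and Hep3B-KD cells carried a lentivirus with a short hairpin RNA against DAGLA (shDAGLA), the gene of diacylglycerol lipase alpha, which makes the endocannabinoid 2-AG. Both groups were infected at a multiplicity of infection of 5 and selected with puromycin, and each had 3 libraries. The comparison asked what changed in the transcriptome after DAGLA knockdown, with a hairpin of 1 sequence in 1 cell line. The sample records call the control a control hairpin virus while the series' design text calls it an empty vector, and they name DMEM where the methods name MEM-alpha. Nothing stated whether the libraries of a group came from separate cultures, so p-values measure only the spread between these samples, which may be technical.

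Liver cells make the proteins that carry and ration iron for the body. Transferrin takes iron through the blood and into cells by its receptors, ferritin stores it, and ferroportin lets it out again, under the control of the liver hormone hepcidin. Inside cells, iron regulatory proteins bind a short RNA hairpin, the iron-responsive element (IRE), and when iron is scarce they block translation of ferritin and ferroportin mRNA and protect the mRNA of the transferrin receptor from decay. Heme is carried outside cells by hemopexin and broken down inside them by heme oxygenase, which frees its iron.

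The IRE hairpins are shown first, since 4 of the members hold them. Annotated UTRs of GENCODE release 29 (GRCh38) were searched on the transcript strand for C, any 5 bases and the loop CAGTGN with the last base not G, where the 5 bases on either side of the loop pair with each other, G-T pairs allowed. The loop of 6 bases is in capitals in each hairpin, written 5′ to 3′ as DNA. In the first 3 the hairpin stood in the 5′ UTR in exon 1 (FTH1 at chr11:61967574-61967602, minus strand; FTL at chr19:48965335-48965363, plus strand) or in the 5′ UTR of SLC40A1 (chr2:189580661-189580689, minus strand). In TFRC, 4 hairpins met this pattern, in the 3′ UTR in exon 19 on the minus strand. The first stood at chr3:196050979-196051007 and the last at chr3:196050463-196050491. A hairpin that departs from the pattern would not be found.
FTH1: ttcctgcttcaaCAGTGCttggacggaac
FTL: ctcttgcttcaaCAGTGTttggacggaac
SLC40A1: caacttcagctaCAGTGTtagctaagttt
TFRC hairpin 1: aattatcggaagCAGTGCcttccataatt
TFRC hairpin 2: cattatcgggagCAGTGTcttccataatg
TFRC hairpin 3: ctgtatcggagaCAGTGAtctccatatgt
TFRC hairpin 4: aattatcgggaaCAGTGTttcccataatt

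A 5′ UTR with this pattern was present in 21 of 11220 expressed genes (0.187%), and a 3′ UTR with it in 80 of 11265 (0.710%). A further match lay in the annotated 3′ UTR of TF, which is 18020 bases long in this annotation. A match is a description of the letters and not a measured site. Changes of mRNA level do not show how much of these mRNAs was translated.

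The guide strand expected from the hairpin's target sequence in the methods is shown with its seed, bases 2 to 8, in capitals, together with the seed match in a member. The letters of this match, GCCTTCA, stood once in the 3′ UTR of SLC40A1 (chr2:189561028-189561034, minus strand) and at 3 places in that of TF, and not in the longest annotated 3′ UTR of the other 8 members. Of 11189 expressed genes with a 3′ UTR of at least 50 bases, 1628 (14.6%) held the match. The 2 members that held it, SLC40A1 and TF, were both higher in Hep3B-KD at an adjusted p under 0.05, as were 36.1% of all genes tested. The matches of TF lay at bases 10833, 11126 and 17600 of an annotated 3′ UTR of 18020 bases. Whether the TF mRNA of these cells holds that stretch was not tested, nor was the part of the match in these values.
shDAGLA guide: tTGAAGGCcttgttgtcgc
SLC40A1 3′ UTR: gagggtgtaaGCCTTCAgcctggcaag

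The libraries held 15861039 to 17572714 reads counted on genes. DAGLA fell from 9.28 ± 0.228 (SD, n = 3) to 4.62 ± 0.164 FPKM (SD, n = 3), a log2 fold change of -0.99 (limma, adjusted p = 5.3e-06). All 8 hepatocyte markers were measured, and their summed level was 2559 to 2608 FPKM in Hep3B-Con and 4050 to 4067 FPKM in Hep3B-KD. Of these markers, 6 rose and 2 fell at an adjusted p under 0.05, beside 36.1% and 23.8% of all genes tested. With the libraries centred on their median gene, 5 rose and 2 fell, beside 28.6% and 30.3% of all genes. ALB, which encodes albumin and makes up 79.0% to 81.8% of the sum, rose from 2042 to 3315 FPKM in the mean, and APOB, an apolipoprotein, from 86.1 to 199 FPKM, whereas HNF4A, a hepatocyte transcription factor, fell from 56.2 to 43.9 FPKM and FGB, a fibrinogen chain, from 19.5 to 9.96 FPKM. Markers of other cell types were low. The summed level was at most 0.0410 FPKM for the 2 erythroid markers measured of 6 listed, at most 0.385 FPKM for the 3 endothelial markers and at most 1.36 FPKM for the 3 macrophage markers measured of 5 listed. The 3 fibroblast and stellate markers summed to 3.32 FPKM or more in each Hep3B-Con library and to 2.45 FPKM or less in each Hep3B-KD library. The part of these markers in the results was not tested.

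Among the members other than HPX, TFR2, SLC40A1, TF and TFRC rose and FTL and HMOX1 fell in Hep3B-KD, while FTH1 and CP were not called, and HAMP was too low to be tested. The test was limma on log2(FPKM + 0.1), with p-values adjusted over the 14221 genes whose average reached 0.5 FPKM, and fold changes are given on this log scale, where changes of weakly expressed genes come out too small. Of the 8 members tested, 4 were higher and 2 lower at an adjusted p under 0.05, against 36.1% of all genes tested that were higher and 23.8% that were lower. Past a fold change of at least 2 as well, 2 members (TFR2 and SLC40A1) were higher and 0 lower, against 5.89% and 2.94% of all genes, and the 0 stood at an unadjusted p and by voom as well. TFR2, part of both counts of higher members, passed the filter only through its level in Hep3B-KD. At a minimum mean of 1 FPKM, where TFR2 was not tested, 3 of 7 members were higher and 2 lower. Under that filter 4704 of 12087 genes were higher and 3301 lower. The 3 Hep3B-KD values lay apart from the 3 Hep3B-Con values in 6 of the 8, against 66.9% of all genes. Over all genes the median log2 change was 0.11, so a gene at the median of the library was itself slightly higher. That of the 8 was 0.49, but it was 0.27 without FTH1 or without TFR2. It was 0.17 without Hep3B-Con replicate 2, 0.21 without Hep3B-Con replicate 3 and 0.19 without Hep3B-KD replicate 2.

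**Figure D1:**
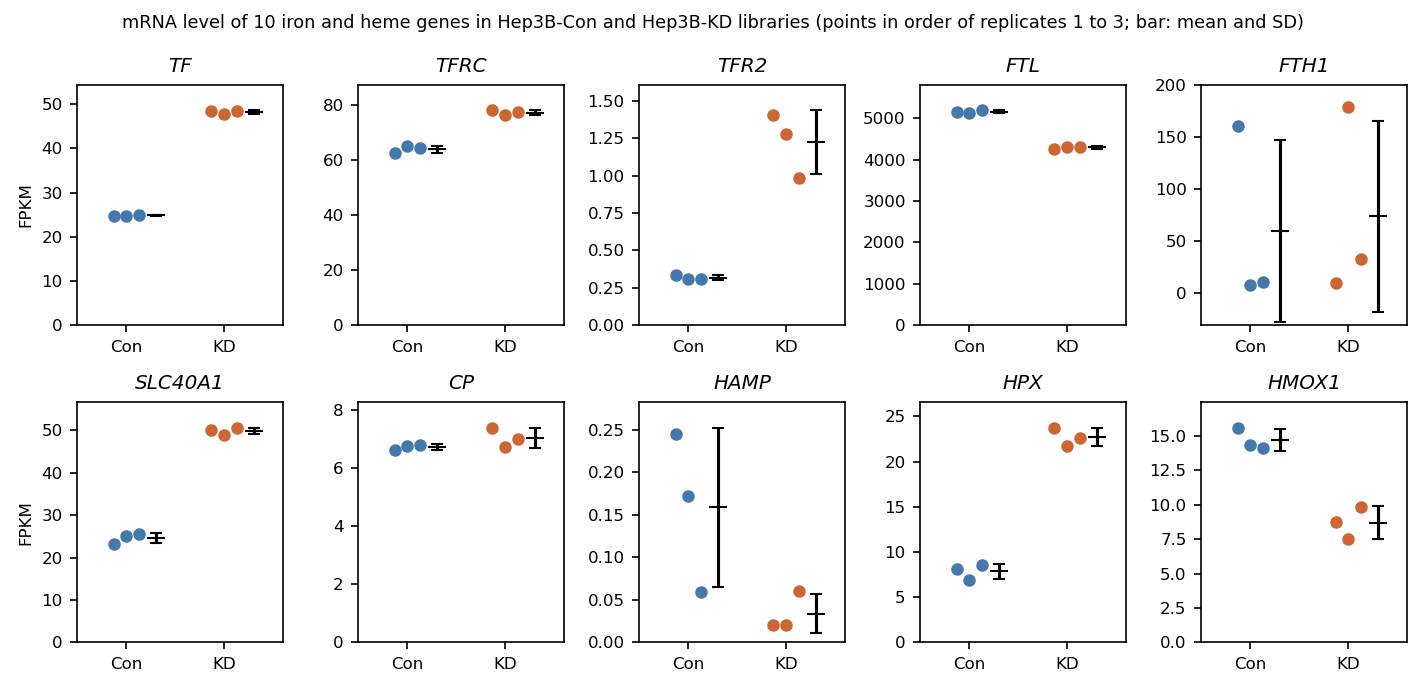
Level in FPKM (vertical axes, each on its own scale) of the 10 genes in the 3 Hep3B-Con libraries (blue) and the 3 Hep3B-KD libraries (orange), with the group mean and SD as black bars. Groups lay apart for TF, TFRC, TFR2, FTL, SLC40A1, HPX and HMOX1, and overlapped for FTH1, CP and HAMP, where FTH1 ran from 7.88 to 179 FPKM.

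Levels per length in Hep3B-Con spanned FTL at 5164 FPKM, TFRC at 63.9, TF at 24.8, SLC40A1 at 24.6, HMOX1 at 14.7, HPX at 7.86, CP at 6.72, TFR2 at 0.317 and HAMP at 0.159 FPKM in the mean. Per exon length, TF and SLC40A1 did not differ beyond their spread in Hep3B-Con. In reads they did, with 10897 to 11405 for TF and 1765 to 1890 for SLC40A1, which has 4330 exon bases. FTH1 had no settled place in this order, since its values in single libraries reached from HPX's level to above that of TFRC. FTL was the 5th most abundant gene of the whole table and TFRC the 478th. The level of TF is per exon length, which includes the long annotated 3′ UTR, in a gene with 26199 exon bases.

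Transferrin, the iron carrier of plasma, is encoded by TF (ENSG00000091513, chr3:133745956-133796640, plus strand). Its level was 24.8, 24.7 and 25.0 FPKM in the Hep3B-Con libraries and 48.4, 47.7 and 48.4 FPKM in the Hep3B-KD libraries. Every Hep3B-KD library was above every Hep3B-Con library, with a gap far wider than the spread within either group. The log2 fold change was 0.95 with an SE of 0.020 (adjusted p = 3.3e-07), or 1.94-fold, on 10897 to 21045 reads per library. In bulk RNA a larger share of cells making a transcript and more of it per cell cannot be told apart, here and in the results that follow. TF shares 112 of its exon bases with SRPRB on the same strand, and 191 with the pseudogene TFP1.

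TFRC encodes transferrin receptor 1, the uptake receptor of most cells, and lies at chr3:196027183-196082189 on the minus strand (ENSG00000072274). It was at 62.4, 64.8 and 64.3 FPKM in Hep3B-Con and at 77.8, 76.0 and 77.1 FPKM in Hep3B-KD. The groups did not overlap, but the difference was small, with a log2 fold change of 0.27 ± 0.022 (SE, adjusted p = 6.3e-05), or 1.21-fold. The median gene was itself higher by 0.11. The log2 fold change of TFRC depended on the scaling. It was 0.17 with the libraries centred on their median gene, 0.30 with libraries rescaled to the same FPKM sum and 0.41 under quantile normalization.

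TFR2 encodes transferrin receptor 2, a receptor of hepatocytes and erythroid cells that takes part in sensing transferrin iron (ENSG00000106327, chr7:100620416-100642779, minus strand). It stood at 0.337, 0.307 and 0.308 FPKM in Hep3B-Con and at 1.41, 1.28 and 0.988 FPKM in Hep3B-KD. It was low in all libraries, at 26 to 113 reads, and even the lowest Hep3B-KD value was well above the Hep3B-Con values. The log2 fold change was 1.65 ± 0.21 (SE, adjusted p = 0.00053). TFR2 passed the filter on low values only through its level in Hep3B-KD, and it was not tested where the minimum mean was 1 FPKM. With a pseudocount of 1 in place of 0.1 it was 0.75, as the levels of the gene lie close to that pseudocount.

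**Figure D2:**
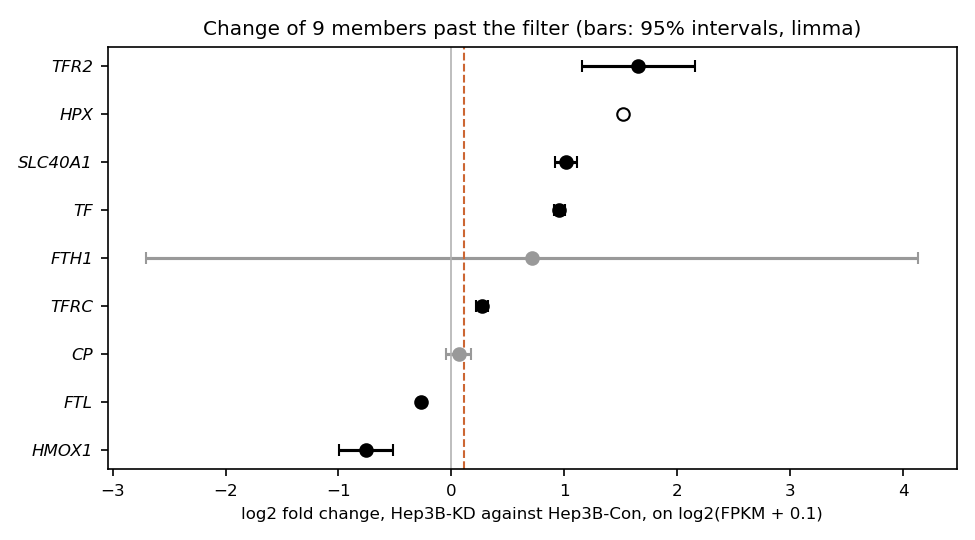
Log2 fold change of Hep3B-KD against Hep3B-Con (horizontal axis) for the 9 genes past the filter on low values, with 95% intervals from limma, in black where the adjusted p was under 0.05 and in grey where it was not. HPX is an open circle with no interval, the dashed line marks the median of all genes at 0.11, and the interval of FTH1 reached from -2.70 to 4.14.

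Ferritin, the store of iron, is built of light and heavy chains. FTL (ENSG00000087086, chr19:48965301-48966878, plus strand), the light chain, was at 5159, 5138 and 5194 FPKM in Hep3B-Con and at 4262, 4310 and 4315 FPKM in Hep3B-KD. The values within each group lay close together and the groups were apart. FTL fell by 0.27 on the log2 scale (SE 0.00996, adjusted p = 2.7e-06), and its share of all reads went from 0.451% to 0.456% in Hep3B-Con to 0.374% to 0.379% in Hep3B-KD. The 4 rows of FTL pseudogenes held 28 to 46 reads per library in sum, beside the 59349 to 79599 reads of FTL.

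FTH1, the heavy chain that oxidises iron for storage, lies at chr11:61959718-61967660 on the minus strand (ENSG00000167996). It was at 160, 7.88 and 10.6 FPKM in Hep3B-Con replicates 1 to 3 and at 10.2, 179 and 32.9 FPKM in Hep3B-KD replicates 1 to 3. Libraries of the same group thus differed by up to 20.3 times in Hep3B-Con and 17.5 times in Hep3B-KD, and the groups overlapped. The log2 fold change was 0.72 with a 95% interval of -2.70 to 4.14 (limma, adjusted p = 0.69), and it was -0.08 without Hep3B-Con replicate 2 and -0.38 without Hep3B-KD replicate 2. No direction can be given for FTH1 from these libraries.

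The spread of FTH1 within groups, an SD of 2.23 on the log2 scale, was the largest among the 7052 genes that averaged 5 FPKM or more, where the median SD was 0.053. FTH1 rested on 278 to 5831 reads, while FTL, in the same libraries, had an SD of 0.0089. The 14 FTH1 pseudogene rows held 92 to 127 reads per library in sum. FTH1P7 and FTH1P2, the most abundant of these, had 38 to 57 and 15 to 31 reads. BEST1, which overlaps 1267 of the 2030 exon bases of FTH1 on the opposite strand, had 8 to 21 reads. Whether the counting used strand is not given in the sources used here.

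The ratio of heavy to light chain therefore varied with FTH1. FTL exceeded FTH1 by 32.2, 652 and 489 times in Hep3B-Con and by 417, 24.1 and 131 times in Hep3B-KD. The log2 ratio averaged -7.76 ± 2.40 in Hep3B-Con libraries and -6.78 ± 2.07 in Hep3B-KD libraries (SD, n = 3 each). The difference of 0.99 was smaller than the SD of either group (exact permutation test, two-sided p = 0.5, where 0.1 is the smallest p that 3 against 3 libraries allow).

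**Figure D3:**
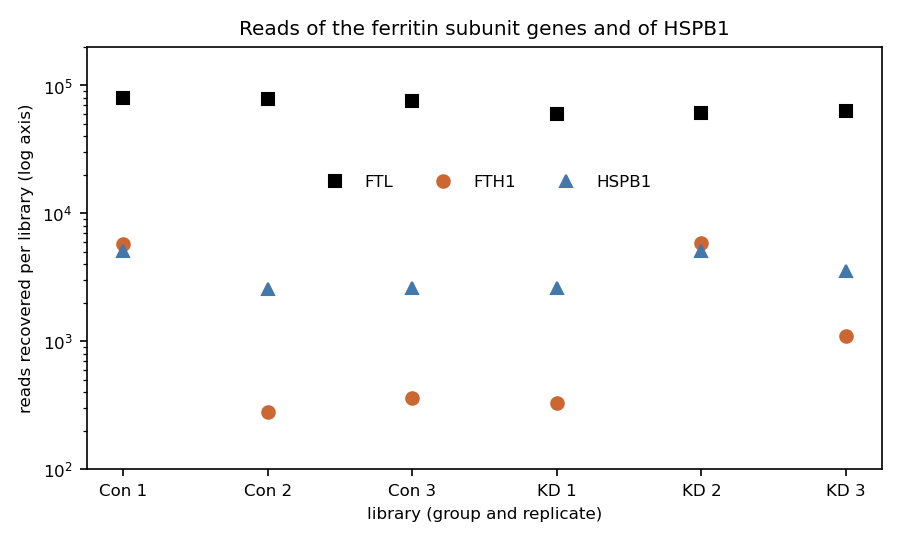
Reads recovered per library (vertical log axis) for FTL (squares), FTH1 (circles) and HSPB1 (triangles) in each Hep3B-Con and Hep3B-KD replicate. FTL stayed between 59349 and 79599 reads, while FTH1 ran from 278 to 5831 reads with its high values in Hep3B-Con replicate 1 and Hep3B-KD replicate 2, where HSPB1 was high too. HSPB1 was picked for this likeness to FTH1.

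SLC40A1 encodes ferroportin, the iron exporter (ENSG00000138449, chr2:189560579-189583758, minus strand). It was at 23.2, 25.1 and 25.6 FPKM in Hep3B-Con and at 50.02, 49.0 and 50.6 FPKM in Hep3B-KD. The groups were far apart, and the log2 fold change was 1.02 ± 0.040 (SE, adjusted p = 3.2e-06), or 2.02-fold. The value lies at the fold threshold of 2, and it was 0.91 once the libraries were centred on their median gene. It was 1.04 with libraries rescaled to the same FPKM sum and 1.11 under quantile normalization. SLC40A1 and the 2 ferritin genes hold the same kind of hairpin in the 5′ UTR, and the mRNA of SLC40A1 rose where that of FTL fell.

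CP, or ceruloplasmin, is a copper ferroxidase of plasma that oxidises the iron leaving cells (ENSG00000047457, chr3:149162410-149222055, minus strand). It was at 6.62, 6.75 and 6.79 FPKM in Hep3B-Con and at 7.39, 6.72 and 6.99 FPKM in Hep3B-KD, so that the groups overlapped. The log2 fold change was 0.06 with a 95% interval of -0.05 to 0.17 (limma, adjusted p = 0.28), and it was -0.04 after median centring and after quantile normalization. CP shares 1418 of its 7296 exon bases with HPS3 on the opposite strand.

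HAMP encodes hepcidin, the hormone that binds ferroportin and has it degraded (ENSG00000105697, chr19:35280716-35285143, plus strand). It was barely detected, with 13, 9 and 3 reads in Hep3B-Con and 1, 1 and 3 reads in Hep3B-KD. Levels were 0.246, 0.172 and 0.0599 FPKM against 0.0209, 0.0207 and 0.0601 FPKM, and the groups overlapped. Over the libraries of each group, 25 reads stood against 5, a ratio of Hep3B-KD to Hep3B-Con of 0.213 with an exact 95% interval of 0.0636 to 0.566 that covers counting error only. With 1 library left out at a time, the ratio was lowest without Hep3B-KD replicate 3, at 0.129 (exact 95% interval 0.0148 to 0.519). It was highest without Hep3B-Con replicate 1, which held 13 of the 25 reads, at 0.292 (exact 95% interval 0.0807 to 0.891). Without the filter on low values, limma gave a log2 fold change of -0.90 (adjusted p = 0.12 over 29908 genes).

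HPX encodes hemopexin, the plasma protein with the highest affinity for free heme, and lies at chr11:6431049-6442617 on the minus strand (ENSG00000110169). It was at 8.09, 6.92 and 8.57 FPKM in Hep3B-Con and at 23.8, 21.7 and 22.6 FPKM in Hep3B-KD. All 3 Hep3B-KD libraries were above the Hep3B-Con libraries, in a gene included for its rise, with a log2 difference of 1.52, or 2.87-fold. It rested on 437 to 1369 reads per library. Within the groups its values spread by an SD of 0.12 on the log2 scale, wider than for TF at 0.011.

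The genes whose pattern over the 6 libraries was most like that of HPX were ZNF292, KIF1C and ARFGEF1, each with a Pearson r of 0.999 on the log2 scale. This is a description over 6 libraries that share the group difference, without a test. ZNF292 was at 0.903 to 1.07 FPKM in Hep3B-Con and 2.55 to 2.87 FPKM in Hep3B-KD. KIF1C, a kinesin motor, ran from 58.1 to 60.4 and from 71.0 to 72.2 FPKM, a much smaller rise.

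HMOX1 encodes heme oxygenase 1, the inducible enzyme that opens heme (ENSG00000100292, chr22:35380361-35394214, plus strand). It was at 15.6, 14.3 and 14.1 FPKM in Hep3B-Con and at 8.76, 7.48 and 9.85 FPKM in Hep3B-KD. Every Hep3B-KD value was below every Hep3B-Con value, and HMOX1 fell by 0.76 on the log2 scale (SE 0.099, adjusted p = 0.00063).

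Around these genes, 98 other genes of iron and heme pathways were listed. Of these, 3 had no expression values under their symbols, and 12 of the remaining 95 fell under the filter. Of the 83 tested, 32 were higher and 28 lower at an adjusted p under 0.05, or 38.6% and 33.7%, beside 36.1% and 23.8% of all genes. After centring of the libraries on their median gene, 25 were higher and 37 lower, or 30.1% and 44.6%, beside 28.6% and 30.3% of all genes under that scaling. The median log2 fold change of the 83 was -0.03. The 36.1% and 23.8% of all genes also stand beside the counts by group below, and no group was tested as a set. The list was made with earlier results of these data known, so its counts are a description. Past a fold of at least 2, 3 rose (HJV, IL6R and AMBP) and 3 fell (STEAP3, NR1D1 and CIAO1).

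**Figure D4:**
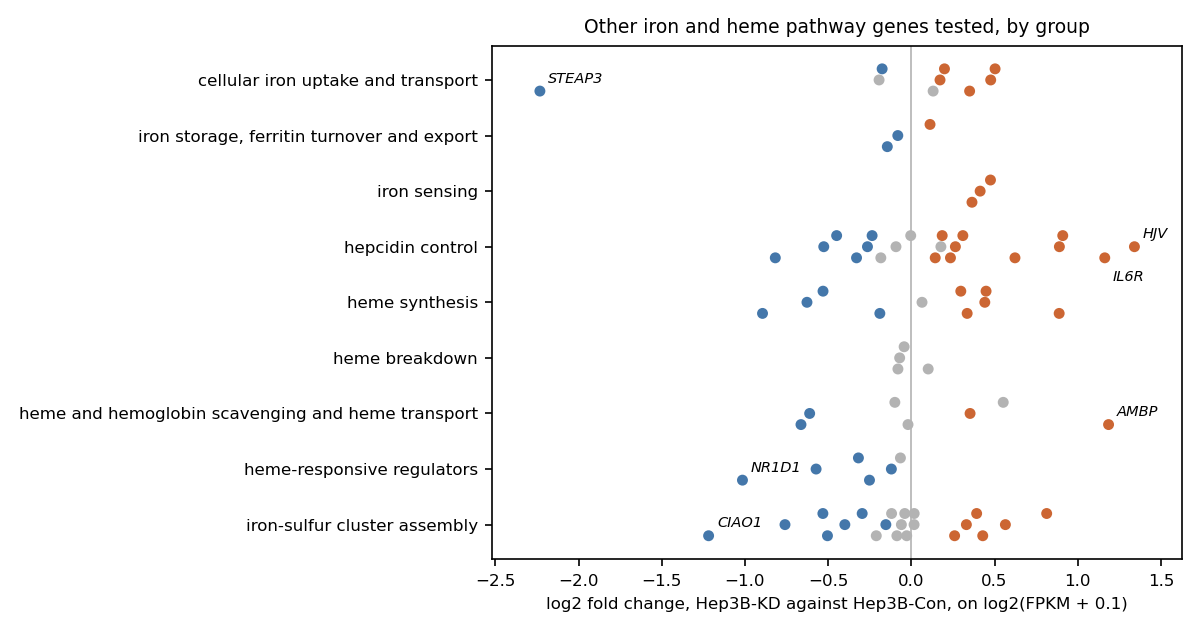
Log2 fold change of Hep3B-KD against Hep3B-Con (horizontal axis) for the 83 other pathway genes tested, by group (rows), in orange where higher and in blue where lower at an adjusted p under 0.05, and in grey where not called. The named genes passed a fold of at least 2, and all 3 iron sensing genes lay above 0 while the 4 heme breakdown genes were not called.

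Of 9 genes of cellular iron uptake and transport, 5 rose and 2 fell (55.6% and 22.2%, beside 36.1% and 23.8% of all genes). STEAP3 is the reductase that converts iron in endosomes after transferrin uptake, and it had the largest change of the pathway list, from 8.74, 8.80 and 8.45 FPKM to 1.52, 1.79 and 2.02 FPKM. Its log2 fold change was -2.23 ± 0.099 (SE, adjusted p = 5.2e-06), in the opposite direction to TF, TFRC and TFR2, the ligand and the receptors it works with. SLC25A37 and SLC25A28, the mitochondrial iron importers mitoferrin 1 and 2, rose by 0.50 and 0.48 on the log2 scale (adjusted p = 0.0044 and 0.016). The call was lost for SLC25A37 under quantile normalization (adjusted p = 0.059), and for SLC25A28 without Hep3B-KD replicate 2 (adjusted p = 0.05004).

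All 3 genes of iron storage and ferritin turnover that could be tested passed the threshold, with small differences. Of all genes tested, 36.1% were higher and 23.8% lower. For PCBP1, an iron chaperone for ferritin, the log2 fold change was -0.14 and for PCBP2 it was 0.11 (adjusted p = 0.041 and 0.029), and these calls were lost in 7 and 6 of 15 alternatives. NCOA4, the receptor that sends ferritin to the lysosome, differed by -0.08 on the log2 scale (adjusted p = 0.012), which turned to 0.03 under quantile normalization. The NCOA4 call was lost with libraries rescaled to the same FPKM sum (log2 fold change -0.05, adjusted p = 0.068). The 3 iron sensing genes all rose, beside 36.1% of all genes. ACO1 and IREB2, which encode the iron regulatory proteins that bind the hairpins shown above, rose by 0.48 and 0.36 on the log2 scale (adjusted p = 4.6e-05 and 0.00010). FBXL5, the ubiquitin ligase subunit that removes them, rose by 0.41 (adjusted p = 0.00030).

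Of 20 hepcidin control genes tested, 10 rose and 6 fell (50% and 30%, beside 36.1% and 23.8% of all genes). HJV, the BMP co-receptor hemojuvelin, rose from 1.84, 2.69 and 2.04 FPKM to 5.97, 5.43 and 5.48 FPKM (log2 fold change 1.34, adjusted p = 0.00018). IL6R, the interleukin 6 receptor, rose from 2.11, 2.17 and 2.42 FPKM to 5.12, 5.10 and 5.11 FPKM (log2 fold change 1.16, adjusted p = 1.4e-05). ACVR2A, a type II receptor for BMP ligands, rose by 0.91 on the log2 scale (adjusted p = 0.00025). The 6 genes that fell were FURIN, ATOH8, ID1, ACVR1, SMAD5 and BMP2, with log2 fold changes from -0.82 (FURIN) to -0.24 (BMP2). Among the others that rose, TMPRSS6 was higher by 0.89 (adjusted p = 3.8e-05). HAMP itself was at 1 to 3 reads in Hep3B-KD, and a link between HAMP and these genes was not tested.

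Of 10 heme synthesis genes, 5 rose and 4 fell (50% and 40%, beside 36.1% and 23.8% of all genes). ALAD, the enzyme that joins aminolevulinic acid into porphobilinogen, rose from 10.1 ± 0.651 to 18.8 ± 0.463 FPKM (SD, n = 3 each, log2 fold change 0.89, limma adjusted p = 1.5e-05). SLC25A38, the mitochondrial glycine carrier that feeds the pathway, fell by 0.89 (adjusted p = 1.7e-05). None of the 4 other heme breakdown genes, which include the constitutive heme oxygenase HMOX2 and the biliverdin reductases, passed the threshold by limma, where HMOX1 fell. At an unadjusted p under 0.05, 1 of them (POR, the reductase that supplies electrons to heme oxygenase, with a log2 fold change of -0.07) would pass, and limma's voom on the recovered reads called 0.

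Of 7 genes of heme and hemoglobin scavenging and heme transport, 2 rose and 2 fell. That is 28.6% each way, beside 36.1% and 23.8% of all genes. AMBP, the precursor of the heme-binding plasma protein alpha-1-microglobulin, rose from 573, 585 and 589 FPKM to 1313, 1326 and 1335 FPKM (log2 fold change 1.19, adjusted p = 5.2e-08). SLC48A1, the heme transporter of endosomes and lysosomes, fell by 0.61 (adjusted p = 0.0012). ABCG2, an exporter of porphyrins and heme, fell by 0.66 (adjusted p = 0.014), and its adjusted p was 0.058 without Hep3B-Con replicate 2. The hemoglobin scavenger HP and its relative HPR were under the filter, with means of at most 0.259 FPKM in either group.

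Of 6 heme-responsive regulators, 5 fell and 0 rose by limma, and 0 rose at an unadjusted p under 0.05 or by voom. By limma, 23.8% of all genes fell and 36.1% rose. NR1D1, a nuclear receptor that binds heme, fell from 4.50, 3.90 and 5.53 FPKM to 2.62, 2.38 and 1.76 FPKM (log2 fold change -1.02, adjusted p = 0.0025). MAFK, a partner of BACH1 and NRF2 at the enhancers of HMOX1, fell by 0.57 (adjusted p = 2.9e-05). NFE2L2, which encodes NRF2, the activator of HMOX1 and the ferritin genes, fell by 0.32 (adjusted p = 0.00016). BACH1 and MAFG fell too, by 0.12 and 0.25 (adjusted p = 0.049 and 0.0094), and KEAP1 was not called. A link of these regulators to HMOX1 or ferritin was not tested. Of 21 iron-sulfur cluster genes, 6 rose and 7 fell (28.6% and 33.3%, beside 36.1% and 23.8% of all genes). CIAO1, of the cytosolic targeting complex, fell from 31.0, 30.0 and 31.3 FPKM to 13.3, 13.1 and 13.1 FPKM (log2 fold change -1.22, adjusted p = 4.1e-07). LYRM4, a partner of the cysteine desulfurase, fell by 0.76 (adjusted p = 2.5e-05), and NUBP1, a cytosolic scaffold protein, rose by 0.81 (adjusted p = 0.0015).

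The seed match of the guide was found in 7 of the 83 pathway genes (BMPR2, CIAO1, HFE, IBA57, SLC25A38, SLC46A1 and STEAP3), or 8.43%, beside 14.6% of all expressed genes. Of these, CIAO1, SLC25A38 and STEAP3 fell and BMPR2 rose, while HFE, IBA57 and SLC46A1 were not called. Over all genes tested, 23.8% fell and 36.1% rose. The part of the match in these values was not tested.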

How the data were processed

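Libraries were grouped by the sample records, which give the hairpin and the replicate. Per the methods, mRNA libraries were made with a TruSeq kit. The authors deposited FPKM values for 29908 genes, with 0 other columns of values. The submitters' processing notes list TopHat2 2.0.12, Bowtie2 2.0.6 and GRCh37, and the counting tool and annotation are not given in the sources used here. All identifiers were found in GENCODE release 29 (GRCh38), and FPKM times its exon length gave whole reads (within 0.01) for 100% of values, summing to the library totals. Coordinates are of that release. There were 382 rows that shared 56 repeated symbols, and the row with the highest mean stood for the symbol.

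The main test was limma 3.58.1 in R 4.3.3 (lmFit, eBayes with trend) on log2(FPKM + 0.1), for genes that averaged 0.5 FPKM or more, with Benjamini-Hochberg adjustment. A read count of 3 per library was noted as a floor, but the fit did not filter genes by it. The members and lists were chosen with earlier results of these data known. Named were the members, DAGLA, pathway genes past both thresholds, and in each group the largest called changes up to 3 names, plus the 3 genes most like HPX, the 2 highest ferritin pseudogenes and members with the seed match. A gene that this rule takes from the pathway list is not reported here. POR, HMOX2, HP, HPR, TMPRSS6, BACH1, MAFG and KEAP1 were named after their values were seen. So were the hepcidin control genes that fell, the pathway genes with the seed match and HSPB1. Alternatives were other filters, pseudocounts, scalings, voom on the recovered reads, a replicate block and leaving out each library. Medians without FTH1 or TFR2 were added after seeing the data. The fit was also run on simulated data, whose outcome is not given here and is not used as support for the results. Tables were handled in Python 3.11.15 with pandas 2.3.3 and scipy 1.17.1.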

Additional observations from a re-analysis of the deposited data

How the results depend on the processing

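TF, TFRC, TFR2, SLC40A1, FTL and HMOX1 kept their direction and their side of the adjusted p threshold in every alternative that could be run, 14 for TFR2, which falls under a minimum mean of 1 FPKM, and 15 for each of the others. HPX was between 1.42 and 1.59 on the log2 scale. The number of all genes past both thresholds was 1256 and went to 503 with a pseudocount of 1, which shrinks the folds of low genes. The log2 fold change of FTH1 ran from -0.38 to 2.09 when each library was left out in turn, and was -0.08 without Hep3B-Con replicate 2 and -0.38 without Hep3B-KD replicate 2. The log2 ratio of FTH1 to FTL differed by 0.99 and ran from -0.11, without Hep3B-KD replicate 2, to 2.36. CP went from 0.06 to -0.04 both with median centring (-0.041) and with quantile normalization (-0.036), and NCOA4 from -0.08 to 0.032 with quantile normalization. Median centring lowered the median of all genes from 0.11 to 0.0059 and moved the calls from 5133 higher and 3388 lower to 4064 higher and 4308 lower. Replicate numbers were shared by the groups, but deviations of same-numbered libraries did not run together (r of -0.013, -0.066 and -0.0011). With the number as a replicate block, 7919 genes were called against 8521, 1247 past both thresholds, and the members stayed at 4 higher and 2 lower. At 1 to 13 reads per library, HAMP is limited by depth.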

Other observations

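Among genes that averaged 5 FPKM or more, HSPB1, which encodes a small heat shock protein, had 5054, 2542 and 2601 reads in Hep3B-Con replicates 1 to 3 and 2611, 5109 and 3538 reads in Hep3B-KD replicates 1 to 3. Its high libraries were Hep3B-Con replicate 1 and Hep3B-KD replicate 2, where FTH1 was high as well. Its SD within groups was 0.51 on the log2 scale. HSPB1 was picked after its values were seen, as the gene whose deviations from the group means were most like those of FTH1 (r = 0.99986). It was 1 of 134 of these genes with an r above 0.95, and the cause was not tested.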
